A study of Mus musculus with 6 samples.

Results

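The 10 genes described here, Pdgfra, Cspg4, Gpr17, Olig1, Olig2, Vcan, C1ql1, Neu4, Lhfpl3 and Matn4, are markers of oligodendrocyte precursors. They were taken by name from a list and matched by symbol to the Ensembl identifiers of the count files, and all 10 were found among 53379 gene identifiers. The study measured RNA from cerebral cortex of 2-month-old C57BL/6 mice in 6 libraries, described in the series title as Gad2+ neurons. The genotype label GTF2ird1-/- was given to 3 libraries (replicates 5, 6 and 7), called knockout below, and wild type to the other 3 (replicates 1, 3 and 4). Gtf2ird1, the gene targeted, encodes a transcription factor and lies in the Williams syndrome deletion. The labels name no treatment, no other allele and no sex, and they do not say how the cells were isolated, which part of Gtf2ird1 is altered, or whether each library came from its own animal. The p-values therefore describe the spread among these 6 libraries, which may be technical.

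Oligodendrocyte precursors are the proliferating glial cells that give rise to the myelin-forming oligodendrocytes, and they persist in the adult cortex. They divide and survive in response to platelet-derived growth factor through the receptor Pdgfra, carry the proteoglycan Cspg4 (NG2) on their surface, and are specified by the basic helix-loop-helix factors Olig1 and Olig2. As they commit to differentiation they switch Pdgfra and Cspg4 off, pass through a stage marked by Gpr17, and then turn on the myelin genes. Pdgfra is also made by fibroblasts, Cspg4 by pericytes, and Olig1 and Olig2 by later oligodendrocytes, so none of these genes belongs to precursors alone.

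The libraries held between 13627501 and 30544144 reads on genes. Levels are CPM (gene counts scaled to a common library size) after TMM normalization, which scales each library by a factor between 0.811 and 1.11. Gtf2ird1 had 49.7, 40.6 and 48.8 CPM in knockout replicates 5, 6 and 7, against 23.4, 31.5 and 52.7 in wild type 1, 3 and 4 (exact permutation test, two-sided p = 0.4, where 0.1 is the smallest that 3 against 3 can give), so the label knockout was not matched by a lower count over the whole gene and the groups are named by their labels alone. Markers of the titled cell type were present but not dominant: per kb of exon, Gad2 averaged 14.9 CPM in knockout and 9.37 CPM in wild type, and the microglial receptor gene Csf1r 1336 and 1649 CPM. On the first principal component (50.5% of the variance) knockout replicates 5, 6 and 7 lay at -49.9, -25.6 and -20.1, on the same side as wild type replicate 1 at -14.6, and wild type replicates 3 and 4 stood apart from these 4 libraries at 59.2 and 51.0. Ribosomal RNA made up 6.2% of the gene reads of knockout replicate 6 and 17.5% of those of wild type replicate 3, with no other library above 1.51%. Transcripts of 4 Y-linked genes, as log2(summed CPM + 1), were at 8.76 and 8.89 in knockout replicates 5 and 6 and at 0.298 or below in knockout replicate 7 and the wild type libraries. For this level alone, CPM was taken over library totals without TMM factors.

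The genes lie on 8 chromosomes of GRCm38, per the GENCODE M21 annotation. Olig1 (91269772 to 91271933) and Olig2 (91225457 to 91228677) are neighbours on the plus strand of chromosome 16, and Pdgfra (75152292 to 75198215) and Lhfpl3 (22746059 to 23275597) are both on the plus strand of chromosome 5, the chromosome of Gtf2ird1 (134357656 to 134456716). Cspg4 lies on chromosome 9 (56865033 to 56899870) and Neu4 on chromosome 1 (94020451 to 94028334), both on the plus strand. Vcan is on chromosome 13 (89655312 to 89742509) and C1ql1 on chromosome 11 (102939264 to 102946688), both on the minus strand. The exons of Gpr17 overlap those of Lims2, and the exons of Matn4 those of Rbpjl, on the opposite strand in both cases. Pdgfra, Olig1 and Lhfpl3 share exon bases with non-coding genes of the opposite strand (Gm42802 and Gm42803, Gm15966, and A930003O13Rik), which had between 0 and 8 counts per library. No source used here states whether counting used the strand, so the levels of these 5 genes are uncertain to the extent that shared bases were left out or split. Pdgfra also shares exon bases with the microRNA gene Mir7025 on its own strand, whichever way counting used the strand. Mir7025 had 0 counts in every library. Matn4 is on the minus strand of chromosome 2 (164389393 to 164405160). Lims2 itself had between 7 and 106 counts per library and Rbpjl between 0 and 15.

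RefSeq promoter sequences (GRCm38.p6) were searched for 7 of the 10 genes, with a pair of start sites for Matn4. Olig1 and C1ql1 had no sequence at hand, and Gpr17 was left out of the search. The 4 shown here are the 250 bases before the RefSeq start of Pdgfra, Lhfpl3, Matn4 and Vcan. The first 3 of these genes ranked the 6 libraries in one identical order, and Vcan ranked them in another. Cspg4, Olig2 and Neu4, which had the same order as Pdgfra, also had windows, which are not shown. They are given 5′ to 3′ on the strand of the gene, and capitals mark E-boxes, the CANNTG motif that basic helix-loop-helix factors such as Olig1 and Olig2 bind.
Pdgfra promoter, chr5:75152001-75152250, plus strand: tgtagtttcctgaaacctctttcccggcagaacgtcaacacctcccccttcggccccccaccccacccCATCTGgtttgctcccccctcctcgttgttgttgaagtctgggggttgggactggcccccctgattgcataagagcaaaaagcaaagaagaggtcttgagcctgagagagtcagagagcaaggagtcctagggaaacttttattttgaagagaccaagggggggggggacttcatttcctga
Lhfpl3 promoter, chr5:22745804-22746053, plus strand: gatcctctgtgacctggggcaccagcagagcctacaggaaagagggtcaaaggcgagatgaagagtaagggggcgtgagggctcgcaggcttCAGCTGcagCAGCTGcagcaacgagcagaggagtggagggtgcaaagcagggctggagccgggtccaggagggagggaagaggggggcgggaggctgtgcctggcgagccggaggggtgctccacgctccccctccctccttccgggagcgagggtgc
Matn4 promoter, chr2:164405161-164405410, minus strand: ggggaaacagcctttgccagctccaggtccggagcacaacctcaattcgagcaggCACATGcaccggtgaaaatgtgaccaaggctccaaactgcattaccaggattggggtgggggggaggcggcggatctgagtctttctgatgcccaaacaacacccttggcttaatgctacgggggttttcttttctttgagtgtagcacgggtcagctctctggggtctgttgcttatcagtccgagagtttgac
Vcan promoter, chr13:89742513-89742762, minus strand: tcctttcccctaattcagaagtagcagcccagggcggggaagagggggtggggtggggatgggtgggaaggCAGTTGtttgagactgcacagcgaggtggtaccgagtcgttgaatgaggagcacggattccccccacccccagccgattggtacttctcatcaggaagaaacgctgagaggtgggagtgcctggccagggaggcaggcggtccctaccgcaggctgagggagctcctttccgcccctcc
Searched on both strands, the Pdgfra, Matn4 and Vcan windows each held 1 E-box: CATCTG in Pdgfra, with its first base 182 bases before the RefSeq start, CACATG in Matn4 at 195 bases and CAGTTG in Vcan at 179 bases. The window of the other Matn4 start, chr2:164404819-164405068, held 0 E-boxes. The Lhfpl3 window held 2 copies of CAGCTG, at 158 and 149 bases. An E-box was in 66.2% of the 32851 promoter windows of the same length, CAGCTG, which is one form of CANNTG, in 13%, and CAGCTG at least 2 times in 1.26%. The SOX-type motifs ACAATG and ACAAAG, in 10.7% and 16.5% of all windows, were in none of these 4, nor was the E-box form CATATG (3.46%). Of the windows not shown, that of Neu4 held 1 E-box, CACCTG, and those of Cspg4 and Olig2 held 0. The Olig2 window held 1 ACAATG. Genes with the same library order thus differed in these motifs, and a relation between motifs and order was not tested.

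For none of the 10 genes did the difference between knockout and wild type pass the test against the spread of the libraries, although all 10 had a higher mean in knockout. By edgeR's quasi-likelihood test with Benjamini-Hochberg adjustment over 17221 genes, 0 of 10 passed an adjusted p of 0.05 as higher, where 0.00581% of all tested genes did, and 0 of 10 as lower, where 0% did. The unadjusted p was under 0.05 for 0 of 10 as well, against 4.48% of all genes as higher and 2.77% as lower, and DESeq2 called 0 of 10 at an adjusted p under 0.05, against 0.12% as higher and 0.0399% as lower. At an unadjusted p under 0.05, DESeq2 had 3 of 10 (Olig1, Olig2 and Neu4), all higher, against 3.94% of all genes as higher and 1.87% as lower. These shares are over 30723 genes with any count, while the adjusted DESeq2 shares are over 17539. Genes with very few counts are thus among the 30723, and the 3.94% cannot be set directly beside the edgeR shares. Log2 fold changes of knockout over wild type lay between 0.52 for Vcan and 1.68 for Neu4, with a median of 1.22, beside a median of -0.03 over all tested genes, of which 46.3% were positive. The groups overlapped for every one of the 10 genes, where 6.34% of all tested genes had all 3 knockout libraries above all 3 wild type libraries and 6.68% had them below. In whole-sample RNA, a difference in the number of precursor cells and a difference in RNA per cell cannot be told apart.

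**Figure D1:**
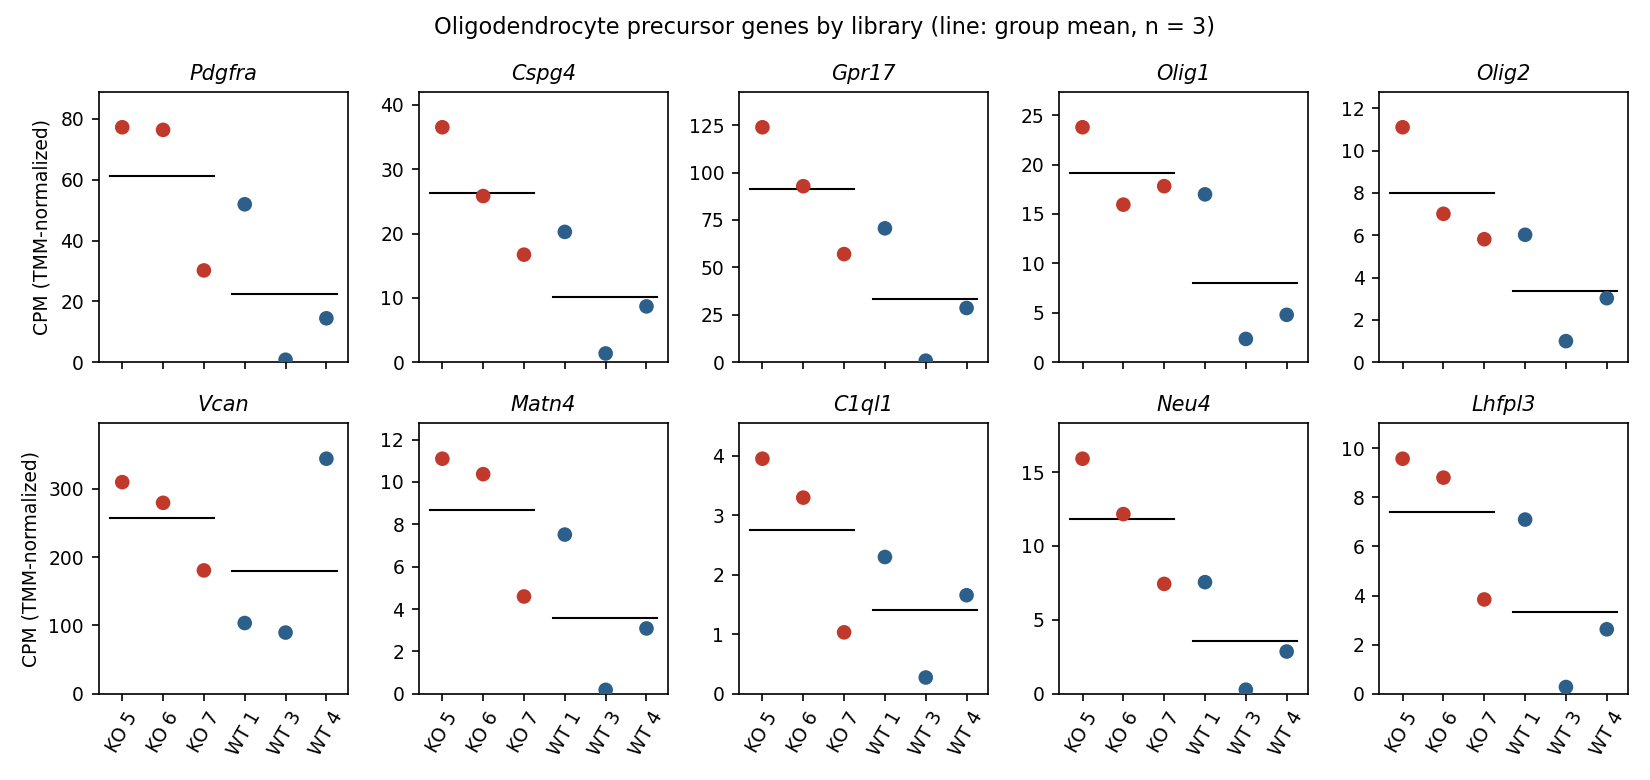
TMM-normalized CPM (y axis, linear from 0, own scale per gene) of the 10 oligodendrocyte precursor genes in knockout (KO, red) and wild type (WT, blue) libraries, with a line at each group's mean of 3. KO 5 is the highest point for every gene except Vcan, WT 3 is the lowest for all 10, and WT 1 lies within the range of the KO libraries for all except Vcan.

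Among the receptors and surface proteins, Pdgfra, the receptor for platelet-derived growth factor AA, had 77.2, 76.4 and 30.2 CPM in knockout (replicates 5, 6 and 7, an order kept for all genes) against 51.9, 0.816 and 14.4 CPM in wild type (replicates 1, 3 and 4). Wild type replicate 1 lay above knockout replicate 7, and wild type replicate 3 rested on only 9 counts. The log2 difference came to 1.43 ± 1.02 (SE; edgeR adjusted p = 0.686), with a 95% interval from 0.516-fold to 14.0-fold. Cspg4, the NG2 proteoglycan, had 36.5, 25.8 and 16.7 CPM in knockout and 20.2, 1.36 and 8.67 CPM in wild type, the same order of libraries as Pdgfra. Its log2 fold change came to 1.35 ± 0.75 (SE; edgeR adjusted p = 0.639). Gpr17, an orphan receptor of precursors committing to differentiation (chromosome 18, 31942997 to 31949636, minus strand), had 123.9, 92.8 and 57.0 CPM in knockout and 70.6, 0.816 and 28.6 CPM in wild type. Its highest library exceeded its lowest by 2.17 times within knockout and by 86.6 times within wild type, the widest span of the 10 genes. The lowest library, wild type replicate 3, held 9 counts of Gpr17. Neu4, Lhfpl3 and C1ql1 held 3 counts there and Matn4 2, so their spans, and the ranking of spans, are uncertain. For Gpr17 the log2 fold change came to 1.44 ± 1.02 (SE; edgeR adjusted p = 0.686).

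Within wild type, the transcription factor genes varied least between libraries after Vcan, the highest library exceeding the lowest by 7.21 times for Olig1 and 6.04 times for Olig2. Olig1 had 23.8, 15.9 and 17.8 CPM in knockout against 17.0, 2.36 and 4.79 CPM in wild type. Only wild type replicate 1 reached the knockout range, lying between knockout replicates 6 and 7. For Olig1 the log2 fold change was estimated at 1.22 ± 0.63 (SE; edgeR adjusted p = 0.638), with a 95% interval from 0.837-fold to 6.52-fold. Olig2 had 11.1, 7.01 and 5.81 CPM in knockout and 6.02, 0.997 and 3.02 CPM in wild type. Its groups overlapped only where wild type replicate 1 passed knockout replicate 7, and its unadjusted p of 0.0744 was the smallest of the 10 genes (log2 fold change 1.21 ± 0.58 SE; edgeR adjusted p = 0.637). Per kb of exon, Olig1 was above Olig2 in all 6 libraries, at 8.87 and 3.15 CPM per kb in knockout and 3.72 and 1.32 CPM per kb in wild type on average.

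The matrix genes behaved differently from each other. Vcan encodes versican, a hyaluronan-binding proteoglycan of the extracellular matrix, and had 309.9, 279.6 and 180.6 CPM in knockout against 103.5, 89.5 and 344.2 CPM in wild type. It was the only one of the 10 genes with its highest level in a wild type library, replicate 4, and wild type replicate 1 was among its low libraries. At 0.52 ± 0.51 (SE; edgeR adjusted p = 0.757), its log2 fold change was the smallest of the 10. Matn4, which encodes the matrix adaptor matrilin 4, had 11.1, 10.4 and 4.59 CPM in knockout and 7.52, 0.181 and 3.08 CPM in wild type. It kept the order of Pdgfra, with wild type replicate 1 above knockout replicate 7, and wild type replicate 3 held 2 counts, below the 3 counts that a count of 0 allows. The log2 fold change of Matn4 came to 1.22 ± 0.88 (SE; edgeR adjusted p = 0.688).

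The remaining genes encode an enzyme, a membrane protein and a secreted protein. Neu4, a sialidase, had 15.9, 12.2 and 7.43 CPM in knockout against 7.55, 0.272 and 2.85 CPM in wild type. Its log2 fold change, 1.68 ± 0.83 (SE; edgeR adjusted p = 0.637), was the largest of the 10, and its 95% interval extended from 0.837-fold to 12.2-fold. Knockout replicate 7 and wild type replicate 1 were close to each other. Lhfpl3, a membrane protein of the tetraspan LHFPL family, had 9.58, 8.81 and 3.84 CPM in knockout and 7.10, 0.272 and 2.63 CPM in wild type (log2 fold change 1.10 ± 0.85 SE; edgeR adjusted p = 0.703). C1ql1, a secreted protein of the C1q family that acts at cerebellar synapses, had 3.95, 3.3 and 1.03 CPM in knockout and 2.3, 0.272 and 1.66 CPM in wild type. Here knockout replicate 7 lay below both wild type replicates 1 and 4. The log2 fold change of C1ql1 came to 0.90 ± 0.74 (SE; edgeR adjusted p = 0.715). Neu4, Lhfpl3 and C1ql1 each had 3 counts in wild type replicate 3, so their levels there were at the limit of detection.

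**Figure D2:**
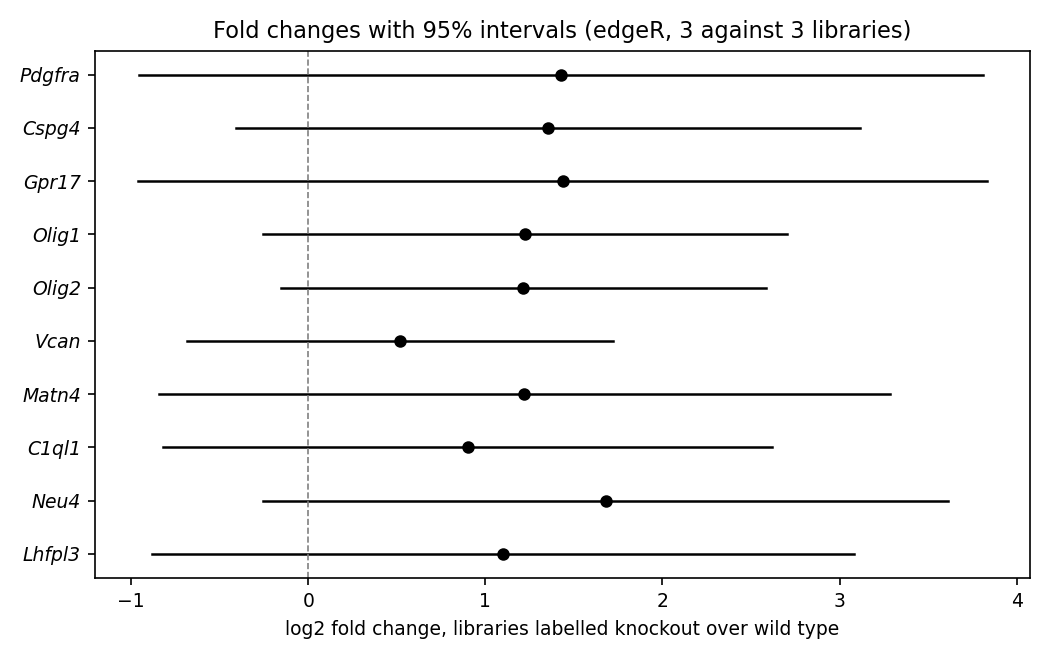
Log2 fold change of knockout over wild type (x axis) for each of the 10 genes (y axis), as edgeR estimates (points) with 95% intervals (bars) from 3 against 3 libraries. All 10 points lie above 0, from 0.52 for Vcan to 1.68 for Neu4, and every interval includes 0.

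Compared per kb of exon, Vcan and Gpr17 were the most abundant of the 10 genes, with means over the 6 libraries of 15.1 and 12 CPM per kb. Olig1 followed at 6.29, Pdgfra at 4.17 and Olig2 at 2.24 CPM per kb. Lhfpl3, Neu4, Cspg4, C1ql1 and Matn4 lay between 1.19 and 1.67 CPM per kb, differences smaller than their spread between libraries. In single libraries the order at the top changed: Gpr17 was above Vcan in knockout replicate 5, at 23.85 against 21.4 CPM per kb, and in wild type replicate 1, at 13.6 against 7.16, but far below it in wild type replicate 4, at 5.50 against 23.8.

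Of the 10 genes, 9 ranked the libraries in nearly one order. For 7 of them (Pdgfra, Cspg4, Gpr17, Olig2, Neu4, Lhfpl3 and Matn4) it ran from knockout replicates 5 and 6 over wild type replicate 1 and knockout replicate 7 to wild type replicates 4 and 3. Olig1 differed from it by exchanging knockout replicates 6 and 7, and C1ql1 by exchanging knockout replicate 7 and wild type replicate 4. Vcan had another order, from wild type replicate 4 over knockout replicates 5, 6 and 7 to wild type replicates 1 and 3. Wild type replicate 3 was lowest for all 10 genes, where it was lowest for 20.6% of all tested genes. Knockout replicate 5 was highest for 9 of 10, where it was highest for 19.9%. Knockout replicate 7 lay below wild type replicate 1 for 8 of 10 genes, all but Olig1 and Vcan, against 48.9% of all tested genes. These libraries were set side by side after their values were seen.

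The proportions of Lhfpl3 and Matn4 to Pdgfra were close in the knockout libraries and wild type replicate 1, while those of other genes varied more. Over these libraries Gpr17 CPM ran from 121.5% to 188.9% of Pdgfra CPM. Cspg4 CPM ran from 33.8% to 55.4%, Neu4 CPM from 14.5% to 24.6% and C1ql1 CPM from 3.42% to 5.11%. Lhfpl3 CPM amounted to 12.2 ± 0.621% of Pdgfra CPM in knockout (SD, n = 3) and to 13.7% in wild type replicate 1, and Matn4 CPM to 14.4 ± 0.825% in knockout (SD, n = 3) and 14.5% in wild type replicate 1. These shares were 18.2% and 21.3% in wild type replicate 4, and 33.3% and 22.2% in wild type replicate 3, where they rest on 3 and 2 counts against 9 of Pdgfra. Olig1 CPM was between 214.1% and 306.5% of Olig2 CPM in knockout and between 158.5% and 282.1% in wild type. Vcan CPM was between 366% and 598.7% of Pdgfra CPM in knockout, against 199.3%, 10980% and 2384% in wild type replicates 1, 3 and 4.

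Vcan departed most from the rest. On centred profiles of log2(CPM + 0.5) over the 6 libraries, the root mean square difference from the mean of the other 9 genes was smallest for Cspg4, at 0.159, and for Matn4, at 0.169, and largest for Vcan, at 1.16, followed by Gpr17 at 1.05 and Pdgfra at 0.85. Gpr17 and Pdgfra kept the common order and differed by a wider range, while Vcan also differed in order. The added 0.5 narrows the range of genes with low CPM, so this measure also depends on how abundant a gene is. Matn4 spanned 41.5 times within wild type and Cspg4 14.9 times. Their centred values in wild type replicate 3 were nonetheless -2.82 and -2.86. Among 140 other listed genes, the 3 closest to Vcan were Stmn2, a microtubule regulator of growing neurites, at 0.125, Gad2 at 0.149 and Dlx1, a homeobox factor of interneuron development, at 0.161. Dlx1 had 182.3, 125.7 and 95.2 CPM in knockout against 47.2, 53.9 and 176.5 CPM in wild type. Like Vcan it was high in wild type replicate 4 and low in wild type replicates 1 and 3. For the other 9 genes the closest listed gene came from the lists of precursor or committed precursor genes: Tnr for Pdgfra (0.318) and Gpr17 (0.216), Pcdh15 for Lhfpl3 (0.273) and Matn4 (0.295), Sox10 for Cspg4 (0.269), Enpp6 for Neu4 (0.284), Xylt1 for Olig1 (0.159), Bmp4 for Olig2 (0.162) and Nxph1 for C1ql1 (0.365). This measure was added after the values were seen, and all of these genes share the same libraries. The precursor and committed precursor lists hold 20 and 15 tested genes, the latter with Neu4 and Gpr17, which were not among the 140. Second closest was Acan, of the lectican list, for Olig2 (0.262) and C1ql1 (0.431), and a gene of the precursor lists for the rest of the 9.

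Over 13529 other protein-coding genes tested, the 5 profiles closest to the mean of the 10 were those of Calb2, Arxes2, Sema3d, Opcml and Cdh13, at root mean square differences between 0.201 and 0.373, where the median of these genes was 1.30. Calb2, the calcium-binding protein calretinin, had 8.25, 6.05 and 5.25 CPM in knockout against 6.09, 0.181 and 2.85 CPM in wild type. Opcml, a membrane-anchored adhesion protein, had 17.6, 16.4 and 13.4 CPM in knockout and 15.4, 1.72 and 5.08 CPM in wild type. Wild type replicate 3 was the lowest library for both. There Calb2 rested on 2 counts, below the 3 counts that a count of 0 allows, and Opcml on 19 counts.

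Other genes enriched in oligodendrocyte precursors gave the same count of calls. Of 20 such genes all were tested, 18 had positive log2 fold changes, 0 passed in either direction, and the median was 0.86. The unadjusted p was under 0.05, with a higher level in knockout, for 4 of 20, beside 4.48% of all tested genes, and 4 of 20 had all knockout libraries above all wild type libraries, beside 6.34%. Bcan, the brain proteoglycan brevican, had 476.8, 168.6 and 293.5 CPM in knockout and 173.3, 51.0 and 44.2 CPM in wild type (log2 fold change 1.80 ± 0.60 SE; edgeR adjusted p = 0.637). The receptor phosphatase gene Ptprz1, the xylosyltransferase gene Xylt1 and the leucine zipper gene Luzp2 had log2 fold changes of 1.61, 1.5 and 1.64, each with an edgeR adjusted p of 0.637. Bcan, Ptprz1 and Luzp2 are also made by astrocytes. The transcription factor gene Sox10, which is active through the whole oligodendrocyte lineage, had 13.6, 8.45 and 9.43 CPM in knockout and 7.27, 0.453 and 3.20 CPM in wild type. Tmem100 and Lypd6 had negative values, at -0.15 and -0.10.

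Genes of the next stages were also without a call. Of 15 genes of committed precursors and newly formed oligodendrocytes, a list that also holds Neu4 and Gpr17, 12 were positive and 0 passed, with a median log2 fold change of 1.11. The unadjusted p was under 0.05 for 0 of these 15. For 4 of 15 all knockout libraries lay above all wild type libraries, beside 6.34% of all tested genes. Enpp6, a phosphodiesterase of newly formed oligodendrocytes, had 26.5, 14.5 and 15.4 CPM in knockout and 13.1, 0.634 and 3.37 CPM in wild type. The myelin regulator gene Myrf had a log2 fold change of 1.22 and Sox10, described above, one of 1.48. Of 20 mature oligodendrocyte and myelin genes, 19 were positive and 0 passed, with a median of 1.35. For 2 of these 20 all knockout libraries lay above all wild type libraries. The unadjusted p was under 0.05 for 2 of these 20, both higher in knockout, beside 4.48% of all tested genes. The smallest values, given here with log2 fold changes in parentheses, were those of Aspa, the enzyme that splits N-acetylaspartate (1.34), the gap junction gene Gjc3 (1.74), the fatty acid hydroxylase gene Fa2h (1.38) and the myelin glycoprotein gene Mog (1.51).

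Precursor and myelin genes did not rank the wild type libraries alike. Wild type replicate 3 lay below replicate 4 for 10 of 10 precursor genes, 15 of 20 other precursor genes and 10 of 13 neuron markers, but for 4 of 20 mature oligodendrocyte and myelin genes and 0 of 16 astrocyte markers, beside 47.7% of all tested genes. The summed CPM of the 9 precursor genes without Vcan came to 11.9%, 11.7% and 5.31% of the summed myelin CPM in knockout and to 7.28%, 1.16% and 33.6% in wild type. Both the lowest and the highest share were thus in wild type. Within knockout, replicates 5 and 6 were both above replicate 7 for 9 of 10 precursor genes, for 11 of 20 other precursor genes, for 7 of 13 neuron markers, for 1 of 20 myelin genes and for 34.1% of all tested genes. These are differences between single libraries and were not tested.

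**Figure D3:**
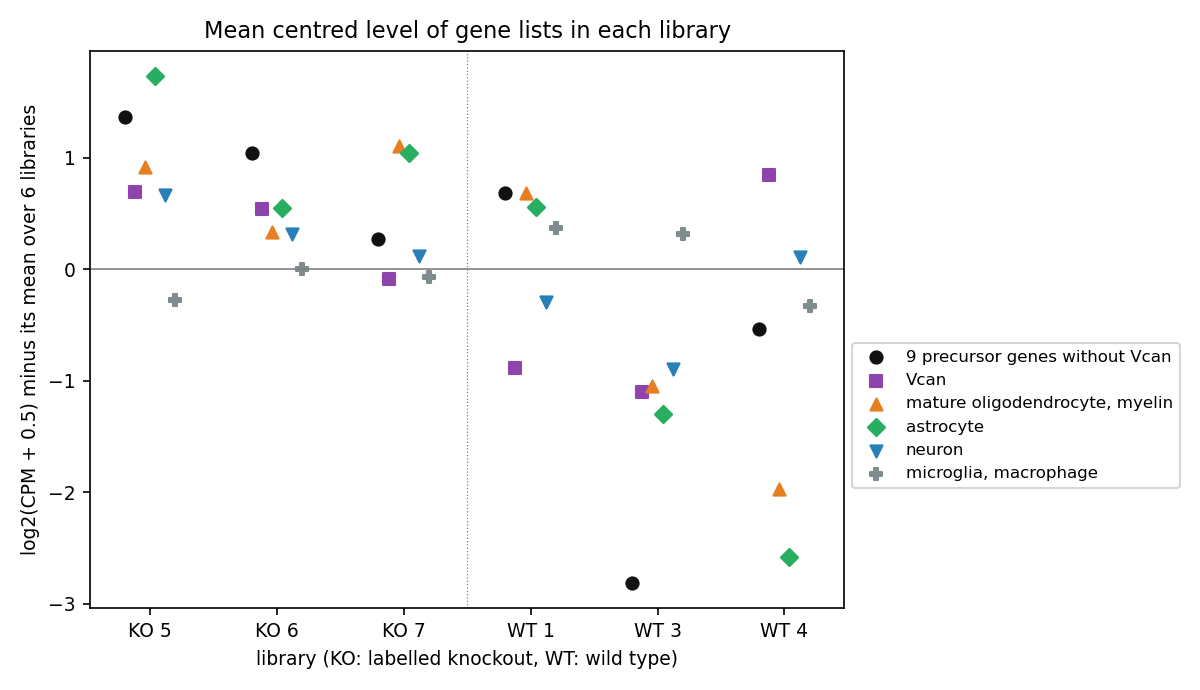
Mean of log2(CPM + 0.5), centred on each gene's mean over the 6 libraries (y axis), for the 9 precursor genes without Vcan, Vcan, and 4 other lists of tested genes, in knockout (KO) and wild type (WT) libraries. In WT 3 the precursor genes are lowest, at -2.81 against -1.05 for myelin genes, while in WT 4 they stand at -0.54 against -1.97, and Vcan is at 0.84.

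The ligands and relatives of the 10 genes held no call either. The family counts that follow include the member of each family among the 10, except for the growth factors. Of 5 genes for platelet-derived growth factors and the beta receptor, 3 were positive and 0 passed (median 0.97). Pdgfa, whose product binds Pdgfra, had 9.27, 8.63 and 11 CPM in knockout and 13.6, 15.1 and 4.62 CPM in wild type, and Pdgfrb, a receptor of pericytes, had 26.2, 8.33 and 19.4 CPM in knockout against 10.9, 4.8 and 2.34 CPM in wild type. Neither followed the order of Pdgfra. Among sialidases, Neu4 was the only one whose log2 fold change was above 1: the lysosomal Neu1 was at -0.01 and Neu3 at -0.45, while Neu2 did not pass the filter on low counts, and 0 of 3 tested passed (median -0.01). C1ql3 and the receptor gene Adgrb3 were at 0.83 and 0.87, C1ql2 and C1ql4 did not pass the filter, and 0 of 3 tested passed (median 0.87).

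Among the lecticans, Vcan included, and their link proteins, 7 of 8 were tested, all 7 were positive, and 0 passed (median 1.24). Ncan, neurocan, had 333.9, 184.1 and 222.6 CPM in knockout and 161.6, 57.9 and 153.7 CPM in wild type. The log2 fold changes of Acan, aggrecan, and of the link protein gene Hapln1 were 1.83 and 2.06. Among matrilins, Matn2 was at 0.87 and Matn1 at -1.39, Matn3 did not pass the filter, and 0 of 3 passed (median 0.87). In the LHFPL family, Lhfp was at 1.62, Lhfpl4 at 0.43 and Lhfpl2 at -0.47, and 0 of 4 tested passed (median 0.76). Lhfpl2 was highest in wild type replicate 3, the library in which Lhfpl3 was lowest, with 155.2, 255.7 and 193.9 CPM in knockout and 252.1, 420.5 and 167.4 CPM in wild type.

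Markers of most other cell types also had positive log2 fold changes, without a call. All 16 astrocyte markers were positive (0 passed, median 1.74), and their summed level was between 3810 and 6982 CPM in knockout and between 323.1 and 3918 CPM in wild type. The unadjusted p was under 0.05 for 6 of 16, beside 4.48% of all tested genes as higher. All knockout libraries lay above all wild type libraries for 9 of 16, beside 6.34%. These counts were 3 and 3 of 9 for tested pericyte and mural markers, and 1 and 2 of 7 for tested fibroblast markers. They were 1 and 1 of 10 for endothelial markers, and both 0 for neuron and for microglia and macrophage markers. All 9 tested pericyte and mural markers of 11 were positive (0 passed, median 1.04). Sums over all 11 were between 62.8 and 91.8 CPM in knockout and 15.0 and 60.3 CPM in wild type. The pericyte gene Kcnj8 had 0 counts in wild type replicate 3, which allows up to 0.272 CPM. All 7 tested fibroblast markers of 8 were positive (0 passed, median 1.25). Sums over all 8 were 30.8 to 33.8 CPM in knockout and 5.08 to 25.8 CPM in wild type. Lum had 0 counts in wild type replicate 4, which allows up to 0.171 CPM. Of 10 endothelial markers, 9 were positive (0 passed, median 0.71), with sums of 166.4 to 227 CPM in knockout and 84.3 to 181.1 CPM in wild type, and of 13 neuron markers all were positive (0 passed, median 0.54), with sums of 731.8 to 1364 CPM in knockout and 377.4 to 1191 CPM in wild type. The 15 microglia and macrophage markers were all negative (0 passed, median -0.24). Their sums were 31960 to 39800 CPM in knockout and 30400 to 49940 CPM in wild type. The pericyte, fibroblast and astrocyte sums were lowest in wild type replicate 4, at 15.0, 5.08 and 323.1 CPM. In wild type replicate 3 they were 29.45, 5.89 and 723.7 CPM. The fibroblast sums of these libraries were thus close, and 3 of 7 fibroblast markers were lower in replicate 3 than in replicate 4. The part of these cell types in the levels of Pdgfra, Cspg4 and Vcan was not tested.

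Of the 6 libraries, leaving out wild type replicate 1 moved the log2 fold change furthest for 9 of the 10 genes, all but Vcan. Log2 fold changes then lay between 0.24 for Vcan and 2.95 for Pdgfra, and Olig1 passed (log2 fold change 2.40 ± 0.37 SE; edgeR adjusted p = 0.0385), making 1 of 10, where 1.77% of all tested genes were called higher and 0.0866% lower. Pdgfra, Cspg4 and Neu4 had edgeR adjusted p-values of 0.17, 0.144 and 0.116 in that setting. Beside Olig1, 5 of 20 other precursor genes (Bcan, Ptprz1, Xylt1, Luzp2 and Ednrb), 7 of 20 myelin genes, 10 of 16 astrocyte markers and 4 of 7 fibroblast markers were called higher there. The wild type group then holds only replicates 3 and 4, the libraries with the largest share of reads outside annotated genes, at 57.7% and 58.2% against 46.8% to 51.2% in knockout. Leaving out any other library gave 0 of 10, where 0.00585%, 0.00553% and 0.029% of tested genes were called higher without knockout replicates 5, 6 and 7, and 0.00552% and 0.0167% without wild type replicates 3 and 4. Other filters gave 0 of 10 as well, against 0.00642% higher with at least 1 CPM in 3 libraries, 0.013% higher and 0.00325% lower with no filter, and 0.00592% higher without rRNA, haemoglobin and small RNA genes. Without wild type replicate 3 the median log2 fold change of the 10 genes was 0.81, and without wild type replicate 4 Vcan was at 1.42 (edgeR adjusted p = 0.143).

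**Figure D4:**
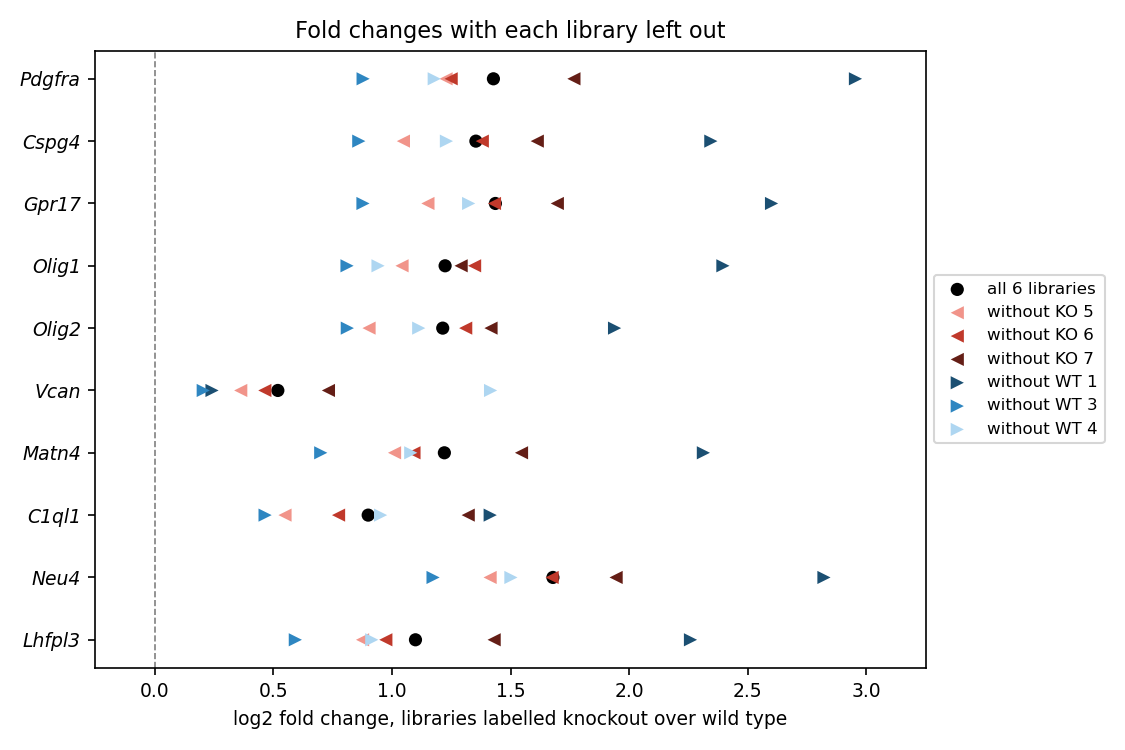
Log2 fold change of knockout over wild type (x axis) for each of the 10 genes (y axis) with all 6 libraries (black circles) and with 1 library left out (triangles, red for KO, blue for WT). Leaving out WT 1 puts Pdgfra at 2.95, against 1.43 with all libraries, and every gene except Vcan at its highest value, and leaving out WT 3 puts all 10 at their lowest.

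The Y-linked transcripts divided the knockout group as 9 of 10 precursor genes did, with replicates 5 and 6 above replicate 7. The same split held for 34.1% of all tested genes and for 7 of 13 neuron markers. The 4 libraries with a Y-linked level of 0.298 or below were also compared alone, knockout replicate 7 against the 3 wild type libraries. There 9 of 10 genes were positive, and their median log2 fold change was 0.55, beside -0.0556 over all tested genes. In that fit the lone knockout library is assumed to vary like the wild type libraries. Pdgfra was then at 0.40, Gpr17 at 0.75, Olig1 at 1.12, Vcan at 0.0115 and C1ql1 at -0.49. With the Y-linked level as a covariate the values were close to these, with 8 of 10 positive and a median of 0.51, beside -0.0458 over all tested genes. No wild type library had a Y-linked level above 0.049, so for knockout replicates 5 and 6 the genotype label and the Y-linked signal cannot be told apart.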

How the data were processed

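The authors deposited raw read counts for each gene in a separate file per library, with 5 summary lines that name no gene. These lines stayed out of totals and tests. They held between 40.0% and 58.2% of reads as outside genes and between 1.94% and 14.45% as ambiguous. Total RNA libraries were made with a stranded kit, per the labels' protocols. Trim Galore 0.60, STAR 2.7, HTSeq 1.31 and build mm10 are named in the submitters' processing notes, but no source used here names the annotation release. Of 53379 identifiers, 53274 matched GENCODE M21 (GRCm38).

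Tests used edgeR 4.0.16 (R 4.3.3): TMM, default filter by group, robust quasi-likelihood F-test, two-sided, Benjamini-Hochberg over 17221 genes, threshold 0.05. The standard error was derived from the F statistic. Exon length is the union of annotated exons. A count of 0 allows up to 3 counts, or 0.0937 to 0.272 CPM after TMM, for counting error only. Libraries of a group differed by at least 49.8 per degree of freedom (chi-square), more than counting error gives, so none was taken as a copy of another. Each was counted as 1 sample, although this value cannot show whether each came from its own animal. Alternatives were DESeq2 1.42.0, limma-voom (limma 3.58.1), other scalings and filters, a Y-linked covariate and left-out libraries.

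The 10 genes and the lists were chosen with earlier results of these data known. Named genes are the 10, up to 4 per list by smallest p, relatives of the 10 and the 5 nearest profiles. Sox10, Tmem100, Lypd6, Ednrb, Kcnj8, Lum, Csf1r and the genes nearest to single members were named after their values were seen.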

Additional observations from a re-analysis of the deposited data

How the results depend on the processing

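All 10 genes kept a positive log2 fold change under 17 planned and 2 added alternatives, except Vcan (-0.0066) and C1ql1 (-0.56) with the Y-linked covariate and C1ql1 (-0.49) among the libraries without Y-linked transcripts. The median of the 10 ran from 0.81 to 2.33 with 1 library left out and from 0.51 to 1.53 otherwise, and the count of the 10 called higher from 0 to 1 and from 0 to 0. Leaving out 1 library gave between 1 and 306 genes called higher over all tested genes and between 0 and 15 lower. It gave between 0 and 5 calls for other precursor genes, 0 and 1 for committed precursor genes, 0 and 7 for myelin genes, 0 and 2 for lecticans and link proteins, and 0 and 1 for the LHFPL family. The upper ends came without wild type replicate 1, while 5 genes were called higher and 1 lower without knockout replicate 7, and 3 higher without wild type replicate 4. Over all tested genes, DESeq2 called 21 higher and 7 lower, the fit without a filter 4 and 1, and the Y-linked covariate 1 and 1. With protein-coding genes alone, among the libraries without Y-linked transcripts, and without the 2 libraries with most ribosomal RNA (added after seeing the data) 0 were called higher, by edgeR. Total-count scaling put the median of all tested genes at 0.11, against -0.03. No paired analysis was possible because the groups share no replicate numbers. Counts of 2 to 26 in wild type replicate 3 limit 9 of the 10 genes there.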
